A study of Asparagus officinalis with 3 samples.

Results

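The miR165/miR166 family of garden asparagus (Asparagus officinalis) was examined, together with the transcripts predicted to pair with it. All 64 sequences that the deposited table assigns to family miR166 were taken, out of 194 listed miRNAs. Of these, 63 are named miR166 and 1 is named aof-miR165a. To them were added the 41 rows of the deposited target table that belong to the family, out of 463 rows in all. The values came from 1 female and 1 male small RNA library. Each was made from RNA pooled over 4 organs (leaves, roots, stems, flowers) and over several 3-year-old greenhouse plants of cultivar "Grand", a dioecious crop, with no treatment. The sexes are therefore compared without replicates, and no p-value was computed. In such organ pools a smaller share of an organ or cell type and less RNA per cell cannot be told apart.

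In plants, miR165 and miR166 are cut from a hairpin whose 3′ arm (3p) gives the functional miRNA and whose 5′ arm (5p) gives its partner strand, often called the star strand. The 3p strand guides the cleavage of mRNAs for class III homeodomain-leucine zipper (HD-ZIP III) transcription factors. In Arabidopsis these factors, among them REVOLUTA, PHABULOSA and PHAVOLUTA, set the upper side of leaves and act in the shoot meristem and in vascular patterning, and the miRNA restricts them to their proper domains. The miR165 and miR166 sequences of Arabidopsis differ by a single base near the 3′ end.

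The members were split into 8 main forms with at least 100 reads per 1000000 reads of the library (RPM) in one library, 41 minor single-substitution sequences with less than 1% of the value of their main form in both libraries, 11 end variants that differ from a more abundant form in their ends alone, and 4 others. The 3p arm held 58 members and the 5p arm held 6. The main forms are shown first, since they carry 97.9% of the summed family value in the female and 98.1% in the male library. Capitals mark the seed, bases 2 to 8 from the 5′ end.
aof-miR166d-1: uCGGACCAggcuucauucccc
aof-miR166g-3p: uCUCGGACcaggcuucauucc
aof-miR166h-3p: uCGGACCAggcuucauuccuc
aof-miR165a: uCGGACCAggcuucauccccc
aof-miR166a-7: uUCGGACCaggcuucauuccc
aof-miR166a-1: cGGACCAGgcuucauucccc
aof-miR166d-7: gGAAUGUUgucuggcucgagg
aof-miR166k-4: gGUAUGUUgucuggcucgagg

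The first 6 of these are 3p forms and the last 2 are 5p forms. Substitutions are written as the base of the compared form, its position counted from the 5′ end, and the new base. Against aof-miR166d-1, aof-miR166h-3p carries C20U and aof-miR165a carries U17C, the base that separates the miR165 type. The forms aof-miR166g-3p, aof-miR166a-7 and aof-miR166a-1 share most of this stretch with shifted ends: their 5′ ends lie 2 and 1 bases before and 1 base after that of aof-miR166d-1. A shift of the 5′ end changes the seed, whereas C20U and U17C leave it as it is. The seed CGGACCA was shared by 31 members, 8 of which were not minor sequences, and these held 82.5% of the family value in the female and 80.2% in the male library. The seed CUCGGAC of aof-miR166g-3p was carried by 6 members with 14.1% and 16.8%.

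A hairpin with both arms is shown to place the strands. It is a rice precursor of 89 nt from chromosome 2 that the study's supplement lists for the conserved miRNAs, not an asparagus sequence. Capitals mark aof-miR166d-7 at its 5′ end and aof-miR166g-3p at its 3′ end, which both match it in every base.
rice precursor: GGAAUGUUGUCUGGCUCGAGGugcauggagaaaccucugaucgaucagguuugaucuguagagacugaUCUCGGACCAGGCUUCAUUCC

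Folded with RNAfold, this stretch of 89 nt had an energy of -34.8 kcal/mol, and 18 of the 21 bases of aof-miR166d-7 paired with bases of aof-miR166g-3p, 3 of them as G:U pairs. Of the 64 members, 12 matched at least 1 of 7 rice precursors in every base: 5 main forms, 6 end variants and 1 minor sequence. Every 3p match lay in the 3′ side of its precursor and the 5p match lay in the 5′ side. The base before the aof-miR166d-1 stretch told precursors apart. Aof-miR166a-7, with U at this place, matched a pair of precursors from rice chromosome 3, and aof-miR166g-3p, with C, matched precursors from chromosomes 2, 10 and 12. The minor sequence that matched a rice precursor, from chromosome 3, was aof-miR166e-3 (G4A of aof-miR166d-1), with 7.32 RPM in the female and 9.41 RPM in the male library.

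The abundance of the 3p main forms was led by aof-miR166d-1, which had 26780 RPM in the female and 21204 RPM in the male library. This was 68.8% and 63.6% of the family. Its female to male ratio was 1.26, with an exact 95% counting interval of 1.25 to 1.27. All such intervals assume that the smallest step between deposited values is 1 read. They cover counting error only and not the variation between plants or library preparations. The form aof-miR166g-3p was nearly even, with 5424 RPM in the female and 5519 RPM in the male library and a ratio of 0.983 (0.967 to 0.999). The form aof-miR166h-3p had 4316 and 3755 RPM, a ratio of 1.15 (1.13 to 1.17). The 3 forms kept the same order in both libraries. Summed over the family, the log2 female to male ratio was 0.22, and without aof-miR166d-1 it was -0.0031.

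Of the less abundant 3p main forms, aof-miR166a-1, which lacks the 5′ U, was higher in the female library, with 229.8 RPM against 134 RPM and a ratio of 1.72 (1.57 to 1.88). Aof-miR166a-7 was higher in the male library, with 438 RPM against 327 RPM, a male to female ratio of 1.34 (1.26 to 1.43). Forms that share most of their bases thus lay on both sides of equality, and the order of aof-miR166a-7 and aof-miR166a-1 was the same in both libraries.

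**Figure D1:**
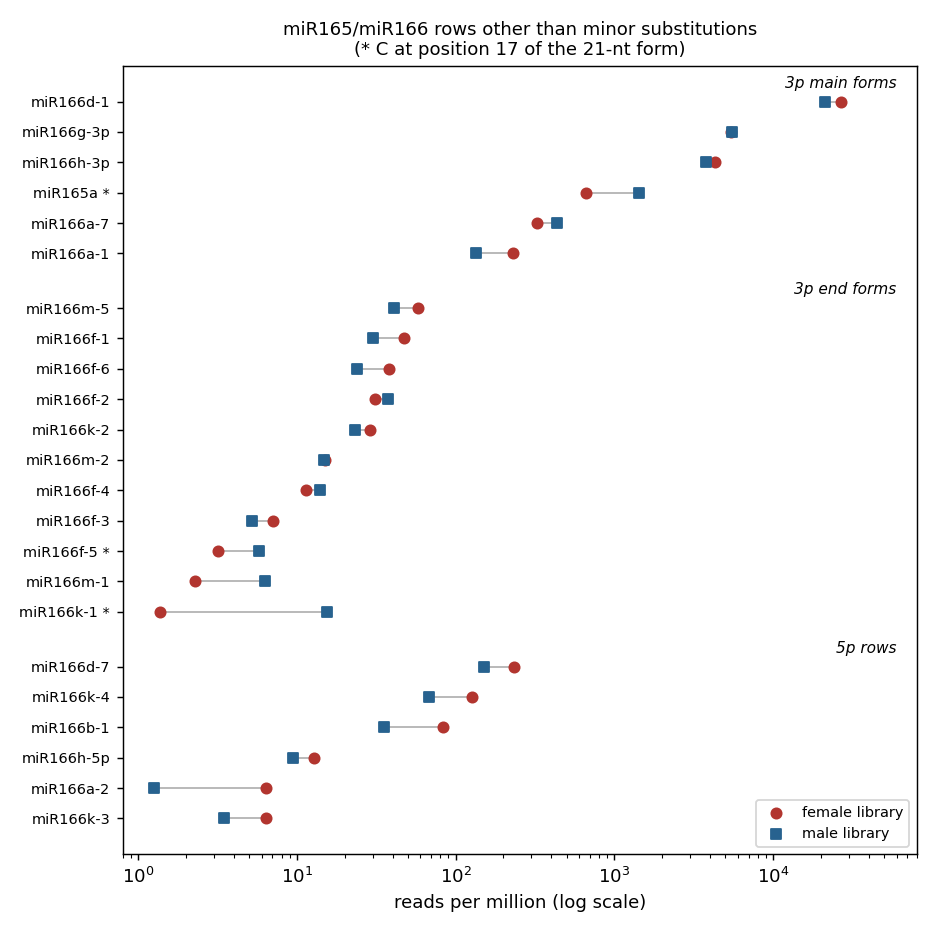
Values in RPM (log axis) of the 23 members that are not minor single-substitution sequences, in the female library (circles) and the male library (squares), in 3 blocks. All 6 sequences of the 5p arm lie higher in the female library, and all 3 sequences of the miR165 type (asterisks) lie higher in the male library. Of these, aof-miR166k-3, aof-miR166a-2, aof-miR166f-5 and aof-miR166k-1 reached the 5 RPM needed for listing only in their higher library.

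The miR165 type, defined by C in place of U at position 17 of the 21-nt form, was the part of the 3p arm with the widest difference among the main forms. Aof-miR165a had 662 RPM in the female and 1436 RPM in the male library, a male to female ratio of 2.17 (2.08 to 2.26). It was the single main form over 2-fold apart. The type had 2 further members, whose ends differ from those of aof-miR165a. The form without the 5′ U, aof-miR166f-5, had 3.20 RPM in the female and 5.80 RPM in the male library. The form cut 1 base earlier, aof-miR166k-1, had 1.37 and 15.4 RPM, about 6 reads against 98. All 3 were higher in the male library, and their sum was 666 against 1458 RPM, a male to female ratio of 2.19 (2.10 to 2.28). Listing required 5 RPM in at least 1 library, and aof-miR166f-5 and aof-miR166k-1 reached it only in the male library. Their direction was therefore fixed by the listing, and only aof-miR165a bears on the direction of the type.

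Each of these has a counterpart with the same ends and U at that place, which allows the types to be compared with the ends held equal. Aof-miR165a had 2.47% of the value of aof-miR166d-1 in the female and 6.77% in the male library. Aof-miR166f-5 had 1.39% and 4.33% of the value of aof-miR166a-1. Aof-miR166k-1 had 4.76% and 66.7% of the value of aof-miR166k-2, which had 28.8 RPM in the female and 23.1 RPM in the male library. All 3 counterparts were higher in the female library, but the interval of aof-miR166k-2 (0.977 to 1.60) includes equality, as does the male to female interval of aof-miR166f-5 (0.957 to 3.63). The opposite directions of the types are therefore beyond counting error in both members of a pair only for aof-miR165a and aof-miR166d-1.

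The 5p arm, the partner strand, held 6 members whose values summed to 468 RPM in the female library and 268 RPM in the male library, a ratio of 1.75 (1.64 to 1.86). This was 1.20% of the family in the female and 0.803% in the male library. All 6 were higher in the female library, whereas the female value was the higher one in 57.7% of all listed miRNAs. Aof-miR166k-3 and aof-miR166a-2 reached the 5 RPM needed for listing only in the female library, so the listing fixed their direction. Of the 58 3p members, 35 were higher in the female library, and the summed 3p value gave a ratio of 1.16 (1.15 to 1.17). The intervals of the arms do not overlap, but they hold no variation between plants.

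The most abundant 5p member, aof-miR166d-7, had 232 RPM in the female and 151 RPM in the male library, a ratio of 1.54 (1.41 to 1.69). Aof-miR166k-4, which carries A3U against it and so has another seed, had 127 and 68.1 RPM, a ratio of 1.86 (1.64 to 2.12). Its value was 54.6% of that of aof-miR166d-7 in the female and 45.2% in the male library, so it was too abundant to be classed as minor. Aof-miR166b-1, with A19U, had 83.0 and 35.1 RPM, a ratio of 2.36 (1.99 to 2.80). A pair of 5p members was over 2-fold apart, aof-miR166b-1 and its shorter form.

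The remaining 5p members are shown with aof-miR166b-1 and with the seed in capitals, since they differ from aof-miR166d-7 in or outside the seed.
aof-miR166b-1: gGAAUGUUgucuggcucgugg
aof-miR166h-5p: gGUGUGUUgucuggcucgggg
aof-miR166k-3: gGAAUGUUgucuggcucgagc
aof-miR166a-2: gGAAUGUUgucuggcucgug
Aof-miR166h-5p carries A3U, A4G and A19G and had 12.8 RPM in the female and 9.41 RPM in the male library, with an interval of the ratio of 0.928 to 1.99 that includes equality. Aof-miR166k-3, with G21C, had 6.40 and 3.45 RPM, a ratio of 1.86 (1.02 to 3.40). Aof-miR166a-2, which is aof-miR166b-1 without its last G, had 6.40 and 1.25 RPM, a ratio of 5.12 (2.27 to 13).

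The 5′ end of the 3p arm fixes the seed, and 44 of the 58 3p members began at the same base as aof-miR166d-1. They held 82.9% of the family value in the female and 80.4% in the male library. The 7 members that begin 2 bases earlier, led by aof-miR166g-3p, held 14.2% and 16.8%. The 4 that begin 1 base earlier held 1.07% and 1.55%, and the 3 that begin 1 base later held 0.697% and 0.491%. The members that begin 1 base later were together higher in the female library, with 271 RPM against 164 RPM and a ratio of 1.66 (1.52 to 1.80). Those that begin 1 base earlier were together lower there, with 415 against 517 RPM and a ratio of 0.803 (0.758 to 0.851). Length varied little: 53 of the 64 members were 21 nt long, and 50 began with U.

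Loss of the first base could be compared in 4 pairs. Aof-miR166a-1 had 0.858% of the value of aof-miR166d-1 in the female and 0.631% in the male library. Aof-miR166f-6 had 0.885% and 0.639% of the value of aof-miR166h-3p, aof-miR166m-5 had 1.07% and 0.736% of the value of aof-miR166g-3p, and aof-miR166f-5 had 0.484% and 0.404% of the value of aof-miR165a. The share was higher in the female library in all 4 pairs, and for aof-miR166f-5, with about 14 and 37 reads, the counting interval of the ratio of shares (0.598 to 2.27) includes equality. For loss of the last base there were 3 pairs in the 3p arm, and the direction was mixed. Aof-miR166f-1 had 0.176% of the value of aof-miR166d-1 in the female and 0.142% in the male library. Aof-miR166f-2 had 0.721% and 1.0% of the value of aof-miR166h-3p, and aof-miR166f-4 had 0.211% and 0.253% of the value of aof-miR166g-3p. For aof-miR166f-4 the interval of the ratio of shares (0.577 to 1.19) includes equality. In the 5p arm, aof-miR166a-2 had 7.71% of the value of aof-miR166b-1 in the female and 3.56% in the male library.

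The end variants are shown with the changed end described. They are the 10 of the 3p arm, and aof-miR166f-5 and aof-miR166k-1 among them belong to the miR165 type.
aof-miR166m-5 (aof-miR166g-3p without its first base): cUCGGACCaggcuucauucc
aof-miR166f-1 (aof-miR166d-1 without its last base): uCGGACCAggcuucauuccc
aof-miR166f-6 (aof-miR166h-3p without its first base): cGGACCAGgcuucauuccuc
aof-miR166f-2 (aof-miR166h-3p without its last base): uCGGACCAggcuucauuccu
aof-miR166k-2 (aof-miR166d-1 moved 1 base to the 5′ side): cUCGGACCaggcuucauuccc
aof-miR166m-2 (aof-miR166d-1 with an added U): uCGGACCAggcuucauuccccu
aof-miR166f-4 (aof-miR166g-3p without its last base): uCUCGGACcaggcuucauuc
aof-miR166f-5 (aof-miR165a without its first base): cGGACCAGgcuucauccccc
aof-miR166m-1 (aof-miR166f-2 with 2 added U): uCGGACCAggcuucauuccuuu
aof-miR166k-1 (aof-miR165a moved 1 base to the 5′ side): cUCGGACCaggcuucaucccc
The most abundant was aof-miR166m-5, with 58.1 RPM in the female and 40.6 RPM in the male library, a ratio of 1.43 (1.20 to 1.71). The one with the longest added tail, aof-miR166m-1, had 2.29 and 6.27 RPM, a male to female ratio of 2.74 (1.35 to 6.15). It reached the 5 RPM needed for listing only in the male library, so the listing fixed its direction. The longer aof-miR166m-2 was nearly even, with 15.1 and 14.8 RPM. Over all 11 end variants, 5p included, the share of the more abundant form was higher in the female library in 5 and in the male library in 6.

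Over the family as a whole, 22 of the 64 members were over 2-fold apart, 13 with the female value higher and 9 with the male value higher. That is 34.4%, against 30.9% of all 194 listed miRNAs and 29.2% of those outside the family, so the count says little about the family. In each direction the shares of all listed miRNAs were 18% for the female and 12.9% for the male library. Of the 22, 17 were minor single-substitution sequences, and among the other 23 members 5 were over 2-fold apart. These were aof-miR165a, aof-miR166k-1 and aof-miR166m-1, higher in the male library, and aof-miR166b-1 and aof-miR166a-2, higher in the female library. Of the 22, only aof-miR165a, aof-miR166b-1, aof-miR166d-5, aof-miR166e-7, aof-miR166e-8 and aof-miR166e-10 reached the 5 RPM needed for listing in both libraries. The listing fixed the direction of the others. The median log2 female to male ratio of the members was 0.33, against 0.18 for all listed miRNAs.

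**Figure D2:**
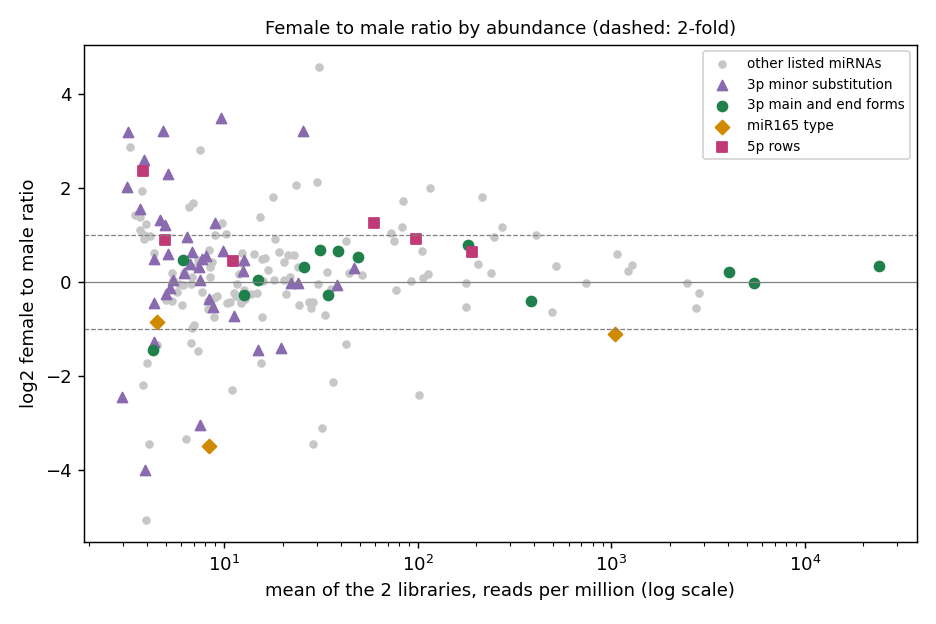
The log2 female to male ratio (vertical axis) of each listed miRNA against its mean over both libraries in RPM (log axis), with grey points for other families and coloured marks for the classes of the miR165/miR166 family. The main forms lie between the dashed 2-fold lines except aof-miR165a, and the members beyond the lines are mostly minor sequences under 50 RPM.

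The minor single-substitution sequences numbered 41, of which 30 differ from aof-miR166d-1, 6 from aof-miR166h-3p and 5 from aof-miR166g-3p. Their summed value was 447 RPM in the female library and 376 RPM in the male library, 1.15% and 1.13% of the family. A sequence of 5 RPM, the lower limit of the list, can be under 1% only of a form above 500 RPM, so such sequences can be listed beside very abundant forms alone. Of the 3 other families compared, miR396 had 2 among 16 members, and miR168 and miR167 had none among 12 and 7.

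Aof-miR166d-1 has 63 possible single substitutions, of which 30 were listed as minor sequences, at 18 of its 21 positions. They were 18 of the 21 possible transitions (A to G, C to U and the reverse) and 12 of the 42 possible transversions. The positions with none were 11, 17 and 20. At the last 2 of these the listed changes are main forms, U17C as aof-miR165a and C20U as aof-miR166h-3p. The minor sequences of aof-miR166d-1 together had 1.28% of its value in either library, so the sum did not differ between the libraries while single positions did.

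Position 5 had the highest summed share in the female library and position 10 the highest in the male library. At position 5, the 3 minor sequences of aof-miR166d-1 summed to 0.271% of its value in the female and 0.0355% in the male library, a 7.62-fold difference in share. At position 10, the 3 minor sequences summed to 0.0760% and 0.300%, a share 3.95-fold higher in the male library. They are shown with the substituted base in capitals.
aof-miR166d-5 (A5G): ucggGccaggcuucauucccc
aof-miR166d-4 (A5C): ucggCccaggcuucauucccc
aof-miR166i-9 (A5U): ucggUccaggcuucauucccc
aof-miR166e-7 (G10A): ucggaccagAcuucauucccc
aof-miR166e-8 (G10C): ucggaccagCcuucauucccc
aof-miR166i-6 (G10U): ucggaccagUcuucauucccc
Aof-miR166d-5 had 46.2 RPM in the female and 5.02 RPM in the male library, a ratio of 9.20 (6.31 to 13.8). Aof-miR166d-4 had 17.6 and 1.57 RPM, and aof-miR166i-9 had 8.69 and 0.94 RPM. In the other direction, aof-miR166e-7 had 10.8 RPM in the female and 28.6 RPM in the male library, a male to female ratio of 2.66 (1.92 to 3.74). Aof-miR166e-8 had 8.0 and 21.8 RPM, and aof-miR166i-6 had 1.60 and 13.3 RPM. All 3 possible changes were thus present at both positions, each set in 1 direction. Aof-miR166d-4, aof-miR166i-9 and aof-miR166i-6 reached the 5 RPM needed for listing only in their higher library, so the listing fixed their direction.

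The same positions could be read in the other parents. For aof-miR166h-3p, A5G (aof-miR166d-6) had 0.154% of the parent in the female and 0.0293% in the male library, and G10C (aof-miR166e-9) had 0.0211% and 0.134%. Aof-miR166g-3p begins 2 bases earlier, so the same position is another base of the hairpin. Its G5A (aof-miR166b-3) had 0.122% and 0.0484%, while the same base change in aof-miR166d-1, at position 3 (G3A, aof-miR166e-1), had 0.0504% and 0.0540%. Its A10C (aof-miR166a-5) had 0.00848% and 0.134%, while the same base change in aof-miR166d-1, at position 8 (A8C, aof-miR166i-5), had 0.0282% and 0.0348%. The shares of both A10C and A8C were higher in the male library. By deposited values A8C was nearly even, with 7.55 RPM in the female and 7.37 RPM in the male library, a ratio of 1.02 (0.635 to 1.63). Aof-miR166a-5 rests on about 2 reads against 47. In all, the shares of the 5 minor sequences at position 5 were over 2-fold higher in the female sample. Those of the 5 at position 10 were over 2-fold higher in the male sample. At other positions, 5 of the 31 were over 2-fold apart in either direction. Positions 5 and 10 were singled out with these values known, so the contrast is not a test. Aof-miR166d-6, aof-miR166e-9, aof-miR166b-3 and aof-miR166a-5 also reached the 5 RPM needed for listing only in their higher library.

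**Figure D3:**
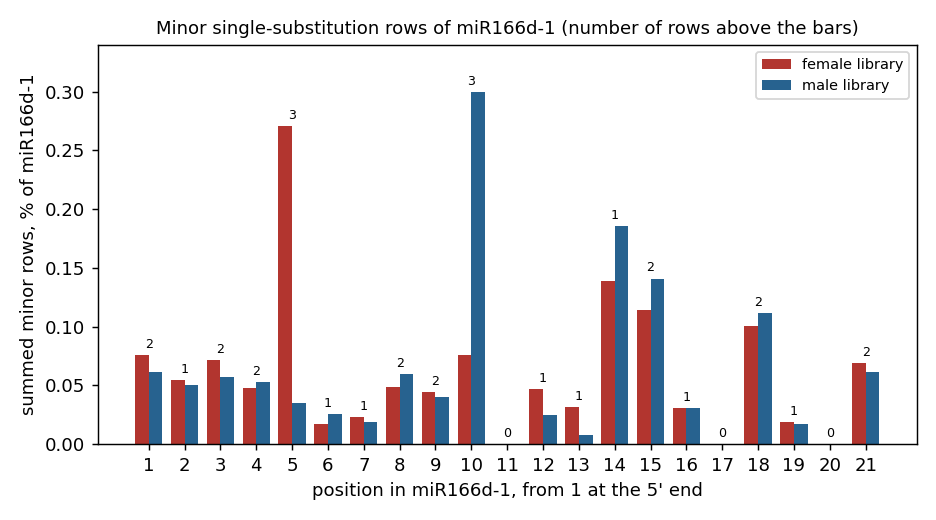
Summed values of the minor single-substitution sequences of aof-miR166d-1, as percent of aof-miR166d-1 in the same library, by position from the 5′ end, with the number of sequences above each pair of bars. Position 5 is high in the female library (0.271% against 0.0355%) and position 10 in the male library (0.300% against 0.0760%), and position 14 is the next highest, with 0.139% and 0.186%.

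Elsewhere the largest minor sequences were near even between the libraries. C21U of aof-miR166g-3p (aof-miR166i-2) had 51.4 RPM in the female and 42.0 RPM in the male library and, with 0.948% and 0.762% of its parent, lay closest to the 1% limit. C14U of aof-miR166d-1 (aof-miR166l-6) had 37.3 and 39.4 RPM, A15C (aof-miR166l-3) had 23.8 and 24.2 RPM, and C18U (aof-miR166l-1) had 21.9 and 22.4 RPM. The 5 exceptions at other positions were low, none of them above 10 RPM. G3C, G4C, U13C and C18A of aof-miR166d-1 had higher shares in the female library and C18U of aof-miR166h-3p in the male library. Each of the 5 reached the 5 RPM needed for listing only in its higher library, so the listing fixed its direction. Among them G3C (aof-miR166e-2), with 5.72 and 0.63 RPM, had a share 7.19-fold higher in the female library, near the 7.62-fold of position 5. It rests on about 25 reads against 4. U13C (aof-miR166e-11), with 8.46 and 1.73 RPM, had a share 3.87-fold higher in the female library. By deposited values, U12C (aof-miR166e-10) with 12.6 RPM in the female and 5.33 RPM in the male library and G9C (aof-miR166e-6) with 6.86 and 2.98 RPM, both of aof-miR166d-1, were also over 2-fold apart. The direction of G9C was likewise fixed by the listing, since it reached 5 RPM only in the female library.

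The predicted targets of the family were 16 asparagus unigenes, which are assembled transcript sequences, paired with 31 of the 64 members. The score of a pair was 1 for each mismatch, 0.5 for each G:U pair and 2 for each gap, which held for all 463 rows of the table, and no score was above 3. A lower score stands for closer pairing. Only 1 of the 16 unigenes is annotated as HD-ZIP, UN19434, a class III homeobox-leucine zipper protein of Asparagus officinalis, and it was paired with 17 members, more than any other. No row of another family in the table names an HD-ZIP protein. These pairs are predictions by sequence, and no cleavage data were analysed here.

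The site of UN19434, put together from its overlapping alignments, covers bases 834 to 813 on the minus strand of the unigene. It is shown because the scores of all 3p members can be read against it.
UN19434 site: uugggaugaagccugguccgga
Aof-miR166d-1 pairs with it without a gap at a score of 3, from mismatches at its bases 20 and 21 and G:U pairs at its bases 1 and 17. Aof-miR166h-3p had the same score and the same unpaired bases, so C20U did not change the pairing here. Aof-miR165a has C at position 17, which turns the G:U pair into a G:C pair, and its score was 2.5. Aof-miR166a-7 had the lowest score of the main forms, 2. Aof-miR166a-1, without the first U and its G:U pair, had 2.5.

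The score was computed on this site for every 3p member. For 49 of the 58 the whole sequence lay within the known site. All 17 with a score of 3 or less were listed in the table with the same score, and all 32 with a score above 3 were not listed. The site came from the alignments of those 17, and no listed score was above 3. The equal scores and the absence of the 32 were therefore fixed in advance. The 17 were 5 main forms, 7 end variants, 4 minor sequences and 1 other, and they held 83.7% of the family value in the female and 81.5% in the male library. The 32 others were all minor sequences, with scores of 3.5 or 4, out of 36 minor sequences within the site. Every minor sequence of aof-miR166d-1 at positions 5 and 10 was among them. The 4 minor sequences that stayed listed carry their change at bases that are unpaired or in a G:U pair, at either end of the sequence.

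The other 9 3p members reach 1 base beyond the site as put together from the alignments. Among them was aof-miR166g-3p, the next most abundant form. Its score was 2 over its 20 bases within that site, and at most 3 with the base outside it. It was not listed for UN19434 or for any other unigene, and the reason was not tested.

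**Figure D4:**
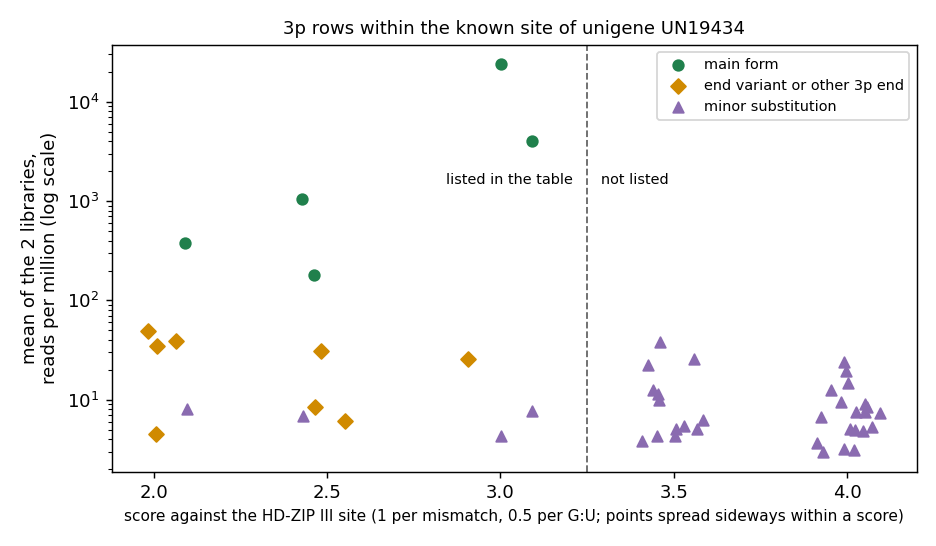
Score against the site of UN19434 (horizontal axis, 1 per mismatch and 0.5 per G:U pair) and mean of both libraries in RPM (vertical log axis) for the 49 3p members that lie within the known site. The 17 members at scores up to 3, left of the dashed line, are those the table lists, and the 32 to the right, at 3.5 and 4, are minor single-substitution sequences.

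The other 15 unigenes had fewer members each. UN32824, annotated as a kinesin motor protein with a di-glucose binding domain, was paired with 5 members at scores of 2.5 to 3, among them aof-miR166a-1. UN49213, without a database hit, was paired with 4 members, aof-miR165a among them, and UN49314, annotated as trehalose-6-phosphate synthase, an enzyme of trehalose metabolism, with 3. The remaining 12 had 1 member each. The 5p arm was paired with 5 unigenes through 4 members, none of them an HD-ZIP gene. The lowest score of the family, 2, was found in 6 of the 41 pairs, all with UN19434, and 27 pairs lay at the limit of 3. Every main form except aof-miR166g-3p had at least 1 predicted target.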

How the data were processed

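Small RNA was sequenced in 1 female and 1 male library. The deposited values are in RPM, under the name TPM in the paper. Per the methods, the authors trimmed adapters, dropped short or poor reads and structural RNAs, and normalized the read counts, without naming the total used. They kept sequences of 20 to 24 nt that reached 5 RPM in one library. The scores deposited in the target table belong to alignments with unigenes, and the table names no program. The methods name psRNATarget for target prediction, without tying it to this table. The degradome library was not analysed here. Low values, up to 60 RPM, followed steps of 0.229 RPM in the female and 0.157 RPM in the male library for 99.4% of values in each, within 0.0051 RPM. If 1 step is 1 read, 5 RPM stands for 21.9 and 31.9 reads. The library totals would then be 4373625 reads (female) and 6374800 reads (male). These equal none of the read counts given in the paper.

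From these values, members were aligned without gaps to aof-miR166d-1, with up to 4 mismatches for the 3p arm. Main forms had at least 100 RPM in one library, minor sequences less than 1% of a main form of the same length, and end variants an overlap of at least 18 identical bases. Ratios used no pseudocount, and their exact (Clopper-Pearson) 95% intervals rest on the reads given by the steps. With 1 library per sex no test was run, and differences over 2-fold were counted. Named were all main forms, all 5p and miR165-type sequences, end variants, minor sequences over 2-fold apart with at least 10 RPM in one library or at positions 5 and 10, and the HD-ZIP and best-scored unigenes. Others were named after their values were seen. The members and lists were chosen with earlier results of these data known. Rice precursor sequences came from the supplement and were folded with RNAfold 2.7.2. Scripts ran in Python with numpy, pandas, scipy and matplotlib and were tested on simulated data. Alternatives were other pseudocounts, minimums, scalings and thresholds.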

Additional observations from a re-analysis of the deposited data

How the results depend on the processing

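Of 43 alternatives, 27 left the result as reported, 15 moved it and 1 reversed it. The count of 22 members over 2-fold apart was 10 with 5 RPM added to both values, 9 with a minimum of 10 RPM in one library, 12 at a 3-fold threshold and 5 without minor sequences. With male values rescaled by the median ratio of all listed miRNAs (1.13), the summed log2 female to male ratio was 0.05 for the family, 0.63 for the 5p arm and -1.31 for the miR165 type, and rescaled by the listed miRNAs outside the family (1.02) it was 0.19 for the family. Without its most abundant member this ratio was -0.0031 for the family (reversed from 0.22), 1.01 for the 5p arm (0.80 with it) and -2.21 for the miR165 type (-1.13 with it). The -2.21 rests on aof-miR166f-5 and aof-miR166k-1 alone. The listing fixed the direction of both, so its sign could not have differed. Counting each 3p sequence once, 75.9% began at the main 5′ end, against 83.9% by value in the female and 81.0% in the male library. The position 10 difference was 3.13-fold by deposited values, not shares of the parent. The 16 predicted unigenes became 5 for main forms alone and 3 at scores of 2.5 or less, a limit chosen after seeing the data. Leaving out a replicate was not possible. No paired analysis was possible because each sex has 1 library. Depth limits the low values most, and 7 of the 41 minor sequences have fewer than 10 reads in one library.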
